A study of Homo sapiens with 4 samples.

Results

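The TAL1 complex genes described here are TAL1, LYL1, TCF3, TCF12, LMO2, LMO4, LDB1 and CBFA2T3, 8 of the 20144 protein-coding genes annotated. ChIP-seq peaks of H3K27ac, the histone acetylation found at promoters and enhancers in use, were listed for K562, an established human BCR-ABL1-positive line with erythroid features. Its cells carried TFAM shRNA hairpin 1, TFAM shRNA hairpin 2 or the non-targeting control shRNA, and all were of the same line and grown alike; TFAM packages mitochondrial DNA and is needed for its transcription. Whether the cells were pools or clones is not given in the sources used here, and the peak lists hold no measure of the TFAM transcript. Each condition had 1 library with 1 peak list, so no test, p-value or spread between replicates can be given, and every difference below is a difference between libraries. Members were taken by name, and all peaks that overlap the gene body with 50 kb on each side (the window) were collected. The windows held 45 of the 23819 peaks of hairpin 1, 48 of the 27007 peaks of hairpin 2 and 42 of the 23413 control peaks. Once peaks that overlapped between lists were joined, they formed 54 of the 33834 regions of the genome.

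TAL1 is a basic helix-loop-helix factor that sets up blood formation and, later, the red cell and megakaryocyte programmes. It binds DNA as a pair with an E protein (TCF3 or TCF12), is joined by the LIM-only protein LMO2 to the adaptor LDB1, and meets GATA1 on composite sites made of part of an E-box and a GATA motif. LDB1 self-associates and holds enhancers to promoters, CBFA2T3 (ETO2) is a corepressor of the complex, LYL1 is the close paralogue of TAL1, and LMO4 is a relative of LMO2 that also binds LDB1.

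The stretches below carry the results that follow. Positions are 1-based in hg19, and sequences were read from the GRCh37 reference. The first is the 250 bases upstream of the start site of TAL1, whose promoter peak was missing from the hairpin 2 list, on the gene's strand. E-boxes (CANNTG) and GATAA, or its reverse complement TTATC, are in capitals.
TAL1 upstream, chr1:47697898-47698147, minus strand: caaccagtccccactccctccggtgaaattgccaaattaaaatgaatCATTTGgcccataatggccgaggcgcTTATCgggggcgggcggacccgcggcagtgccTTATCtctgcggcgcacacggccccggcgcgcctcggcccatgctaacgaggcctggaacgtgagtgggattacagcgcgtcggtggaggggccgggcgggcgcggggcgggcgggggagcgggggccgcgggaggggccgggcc
The next 3 are the central 300 bases, on the plus strand, of distal regions that were wider in both hairpin lists, with the same capitals.
TAL1 region 19.5 kb downstream of the start site, chr1:47678283-47678582: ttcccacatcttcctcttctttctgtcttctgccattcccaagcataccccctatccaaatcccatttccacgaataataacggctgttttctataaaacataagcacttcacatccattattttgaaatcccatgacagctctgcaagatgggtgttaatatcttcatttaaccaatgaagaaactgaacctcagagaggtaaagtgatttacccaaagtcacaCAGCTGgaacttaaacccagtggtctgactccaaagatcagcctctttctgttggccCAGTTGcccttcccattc
TCF12 region 394 kb downstream of the start site, chr15:57604492-57604791: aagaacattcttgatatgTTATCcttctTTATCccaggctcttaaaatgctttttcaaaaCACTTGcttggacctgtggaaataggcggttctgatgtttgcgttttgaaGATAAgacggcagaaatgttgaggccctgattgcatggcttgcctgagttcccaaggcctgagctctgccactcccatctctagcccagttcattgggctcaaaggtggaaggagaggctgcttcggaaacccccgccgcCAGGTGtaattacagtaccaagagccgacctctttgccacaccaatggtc
LMO2 region 7.51 kb upstream of the start site, chr11:33920983-33921282: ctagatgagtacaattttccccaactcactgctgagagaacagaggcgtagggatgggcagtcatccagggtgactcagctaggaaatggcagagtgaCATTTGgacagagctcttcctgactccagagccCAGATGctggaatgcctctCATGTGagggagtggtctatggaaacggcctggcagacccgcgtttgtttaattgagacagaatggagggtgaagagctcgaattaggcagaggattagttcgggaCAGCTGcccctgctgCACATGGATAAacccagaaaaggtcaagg
The last 2 are 100 bases around a match to the composite CTGNNNNNNNNGATAA, which is in capitals, in the region 50.8 kb downstream of the TAL1 start site and at the LMO2 promoter.
TAL1 composite, chr1:47648199-47648298, minus strand: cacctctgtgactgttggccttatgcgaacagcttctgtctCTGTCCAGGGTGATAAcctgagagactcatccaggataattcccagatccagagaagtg
LMO2 composite, chr11:33913966-33914065, minus strand: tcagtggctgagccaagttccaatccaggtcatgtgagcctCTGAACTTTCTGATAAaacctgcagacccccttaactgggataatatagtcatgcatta

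Of the 8 members, 5 (LMO2, LMO4, LDB1, TCF3 and TCF12) had a promoter peak in every list, where a promoter reaches 1 kb to both sides of the start site. Of all protein-coding genes, 50.4% did. TAL1 lacked one in hairpin 2 alone and CBFA2T3 in hairpin 1 alone. LYL1 had none in any list, like 41.4% of all protein-coding genes; where the control had none, 6.88% of genes had one in hairpin 1 and 6.94% in hairpin 2. Among the 7 members with a control promoter peak, 1 had no peak in hairpin 1 and 1 had none in hairpin 2. Over all 10826 genes with a control promoter peak, 4.01% had none in hairpin 1 and 3.79% none in hairpin 2. Missing from exactly 1 hairpin were 2 of the 7 members and 4.75% of the genes. These counts are small, and they were not tested against these shares.

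**Figure D1:**
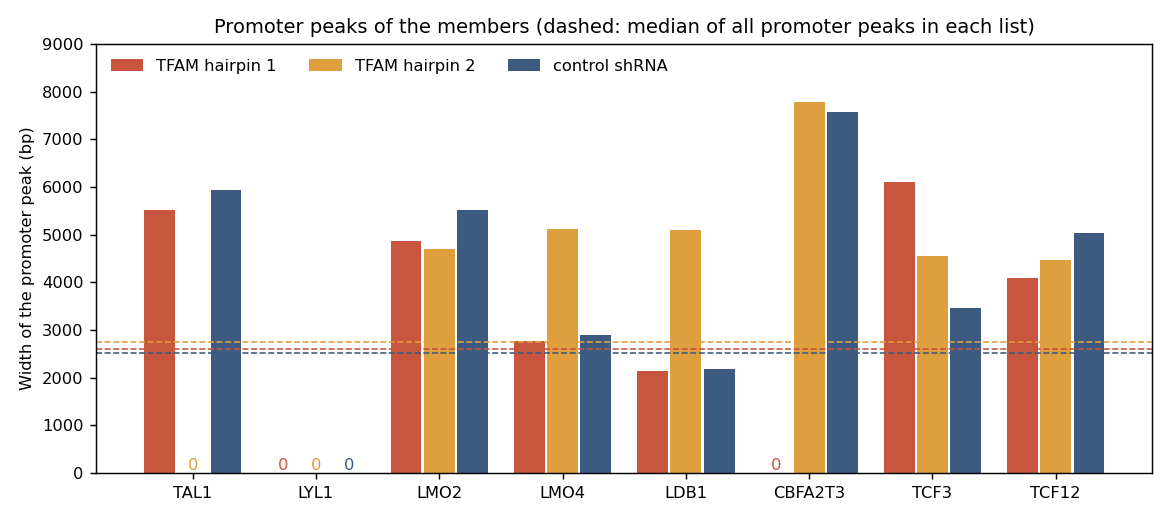
Width in bp of the promoter peak of each member in TFAM hairpin 1, TFAM hairpin 2 and control shRNA, with 1 bar per library; 0 marks no peak, and dashed lines give the median width of all promoter peaks per list (2609, 2737 and 2520 bp). TAL1 has no bar in hairpin 2, CBFA2T3 none in hairpin 1 and LYL1 none at all, while most other bars stand above the dashed lines.

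The promoter peaks of the members were broad. Their median width was 4475 bp in hairpin 1 (6 members), 4905 bp in hairpin 2 (6 members) and 5040 bp in the control (7 members). Over all promoter peaks the medians were 2609, 2737 and 2520 bp, and 5 of 6, 6 of 6 and 6 of 7 members stood above them. Score ranks did not stand out in the same way. The score, the authors' own value for a peak, placed the members at a median percentile of 80.2 in the hairpin 1 list, 69.7 in the hairpin 2 list and 76.4 in the control list, against 77.5, 79.9 and 76.8 for all promoter peaks.

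The TAL1 promoter had a peak of 5523 bp in hairpin 1, no peak in hairpin 2 and a peak of 5929 bp in the control (chromosome 1, 47693009 to 47698937), which covered all 3 of the gene's annotated start sites. It ranked at score percentile 74.2 of the hairpin 1 list and 66.5 of the control list. Hairpin 2 had no peak within 5 kb of the start site either, although its list was the longest. The CBFA2T3 promoter had no peak in hairpin 1, one of 7780 bp in hairpin 2 and one of 7577 bp in the control (chromosome 16, 89038700 to 89046276), at score percentiles 61.0 and 31.8, so that its control peak is not among the higher-scoring 50%. These were the widest member peaks, and hairpin 1 again had no peak within 5 kb of the start site.

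Across the genome, promoter peaks of such width were missing from another list more often than those of middle width. Of 457 genes with a control promoter peak over 5 and up to 6 kb wide, the width of the TAL1 peak, 4.81% (exact Clopper-Pearson 95% interval 3.04 to 7.20) had none in hairpin 1 and 7.22% (5.02 to 9.99) none in hairpin 2. Of 118 genes with one over 7 and up to 8 kb, the width of the CBFA2T3 peak, 16.1% (9.98 to 24.0) had none in hairpin 1 and 22.9% (15.7 to 31.5) none in hairpin 2. Between 2 and 3 kb these shares were 1.27% and 1.59%. The same held in the other direction, since 15.4% of hairpin 1 and 12.2% of hairpin 2 promoter peaks over 7 and up to 8 kb had no control counterpart. Intervals cover counting error only. The widest peak of any list had 8841 bp, and the settings of the peak caller are not given in the sources used here. Whether a promoter without a listed peak lacked acetylation was not tested, nor was the part of width in the missing TAL1 and CBFA2T3 peaks.

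**Figure D2:**
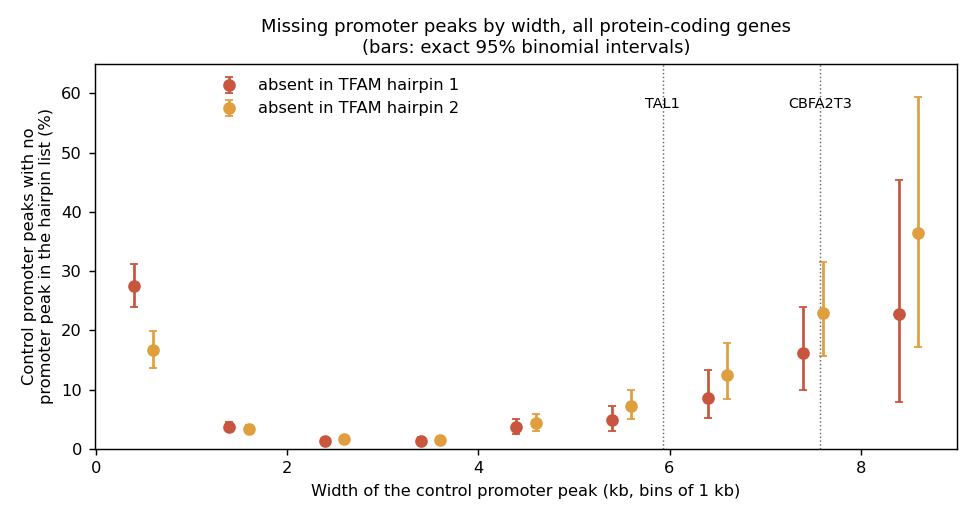
Share of control promoter peaks with no promoter peak in the TFAM hairpin 1 or TFAM hairpin 2 list (percent, with exact 95% binomial intervals) against the width of the control peak in bins of 1 kb, over all protein-coding genes; dotted lines mark the control widths of TAL1 and CBFA2T3. Shares are lowest between 2 and 4 kb and higher for the narrowest and the widest peaks, reaching 16.1% and 22.9% in the bin of CBFA2T3.

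LYL1, known from mouse to share tasks with TAL1 in blood stem cells, lay in a stretch without a peak in any list. On chromosome 19 no peak was listed between 13192184 and 13225581, a gap of 33.4 kb around the start site at 13213672. Whether this stretch lacked acetylation was not tested. The flanks were marked: the peak over the promoters of TRMT1 and NACC1 had 6360 bp in hairpin 1, 6182 bp in hairpin 2 and 5088 bp in the control. The one over STX10 and IER2 had 7582, 8157 and 6997 bp in the same order. Both were widest in a hairpin and narrowest in the control.

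The E proteins, partners of TAL1 in DNA binding, had a promoter peak in every list. TCF3, which encodes E12 and E47, had 6098 bp in hairpin 1, 4550 bp in hairpin 2 and 3466 bp in the control (chromosome 19, 1650663 to 1654128), at score percentiles 64.8, 85.7 and 98.8. Its widest peak thus had the lowest rank and its narrowest the highest. TCF12, which encodes HEB, had 4084, 4465 and 5040 bp (control peak at chromosome 15, 57208664 to 57213703), at percentiles 95.6, 98.1 and 79.8. Here the widths ran the other way, with both hairpins narrower than the control.

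The bridging and adaptor genes had promoter peaks in every list too. LMO2, the LIM-only protein that links TAL1 to LDB1, had 4865 bp in hairpin 1, 4705 bp in hairpin 2 and 5518 bp in the control (chromosome 11, 33911802 to 33917319), at percentiles 52.9, 61.1 and 49.1. Its second annotated start site lay in another peak in every list, centred 21.8 kb into the gene and counted as distal here, of 4725, 5828 and 5381 bp at percentiles 80.2, 79.5 and 64.8. This inner promoter ranked above the outer one in each list. LMO4, the other LIM-only member, had 2770, 5112 and 2888 bp (chromosome 1, 87793270 to 87796157 in the control), and only hairpin 2 reached past its second start site. LDB1, the self-associating adaptor, had 2137, 5104 and 2170 bp (chromosome 10, 103879132 to 103881301 in the control). Hairpin 2 was again the widest, and hairpin 1 and the control were alike. Score percentiles were 86.2, 73.2 and 79.7 for LMO4 and 86.7, 66.1 and 76.4 for LDB1, lowest in hairpin 2 for both. A further annotated start site of LDB1 lay in a separate peak in every list, of 4313, 5558 and 4436 bp.

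**Figure D3:**
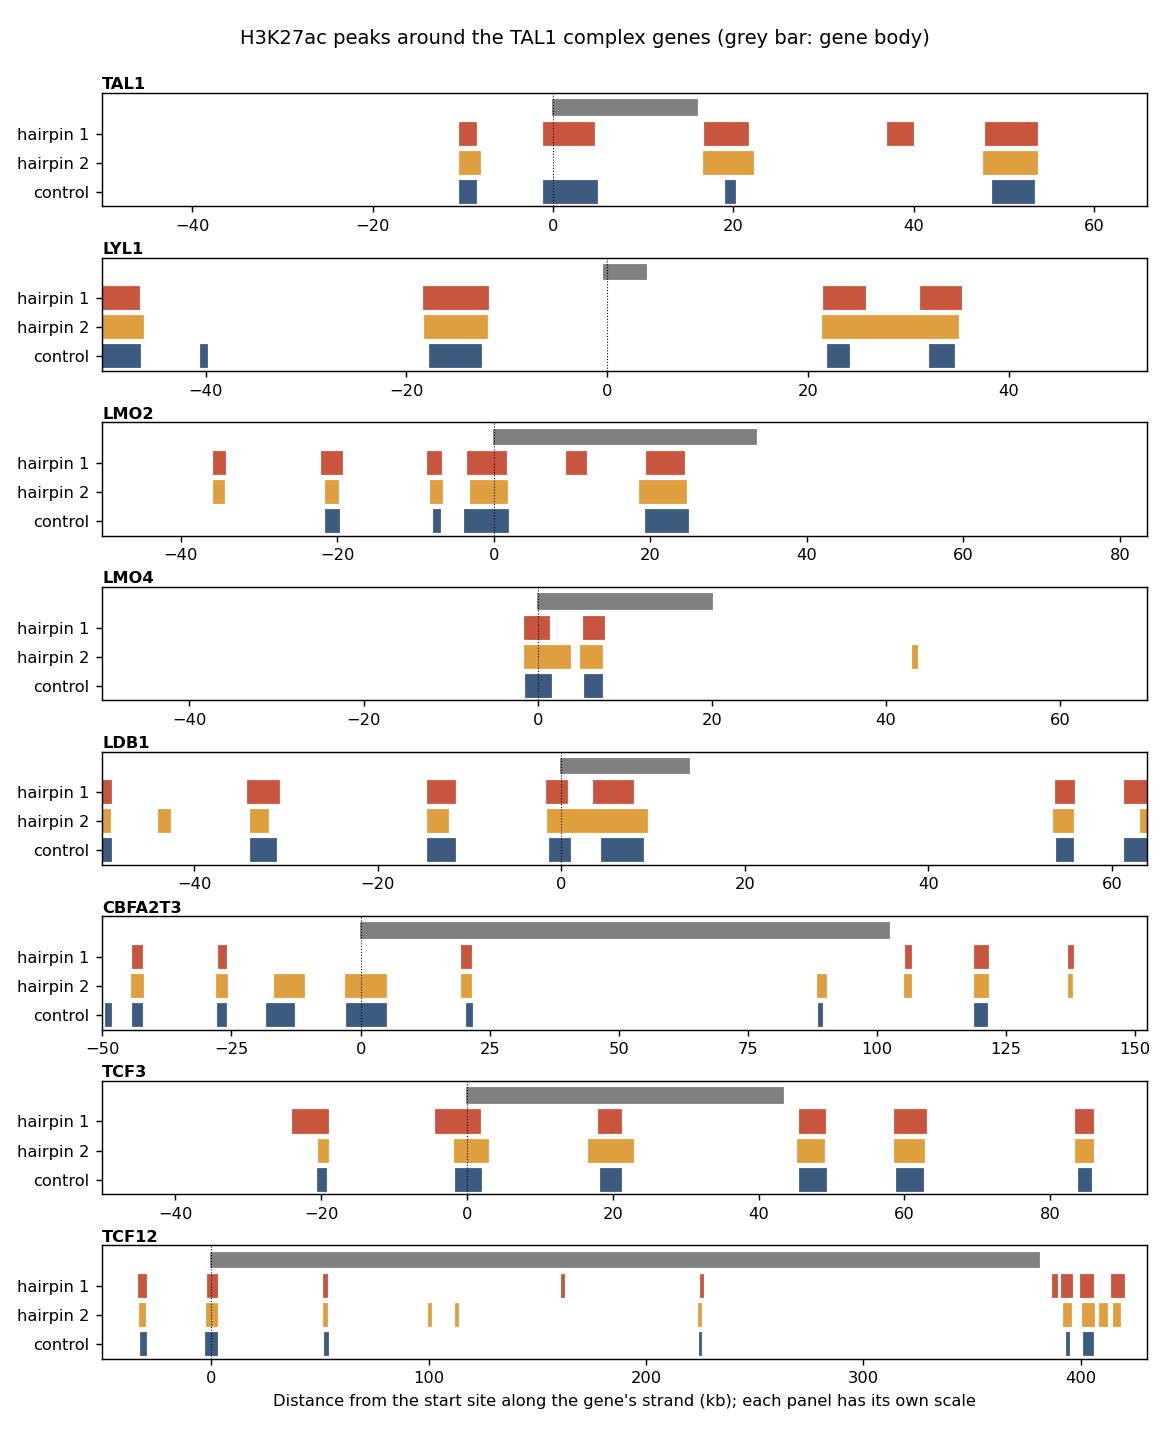
Peaks of TFAM hairpin 1, TFAM hairpin 2 and control shRNA (1 row each, top to bottom) around the 8 members, against the distance in kb from the start site along the gene's strand; the grey bar is the gene body and each panel has its own scale. The row of hairpin 2 is empty at the TAL1 start site and that of hairpin 1 at the CBFA2T3 start site, and at the LYL1 start site all rows are empty.

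Over the whole windows, peaks covered more sequence with TFAM shRNA than in the control in 7 of 8 members with hairpin 1 and in 8 of 8 with hairpin 2. Some of these directions depend on the window: with 10 kb on each side the log2 ratio was -0.034 for LDB1 with hairpin 1 and -0.17 for TAL1 with hairpin 2. With 100 kb it was -0.22 for LMO4 with hairpin 1 and -0.086 for CBFA2T3 with hairpin 2. Covered base pairs were at least 1.5-fold higher in 2 members with hairpin 1 (TAL1 and TCF12), against 14.8% of all 15337 windows with at least 1000 bp in both lists. With hairpin 2 this was so in 3 members (LYL1, LMO4 and TCF12), against 20.9% of 15651 windows. At least 1.5-fold lower was 1 member with hairpin 1 (CBFA2T3; 8.01% of windows) and 0 with hairpin 2 (4.27%). The median log2 ratio over the members was 0.40 for hairpin 1 and 0.34 for hairpin 2, and 0.12 and 0.23 over all windows, so the members' medians stood above a background that was itself above 0 in both hairpins. Covered length was higher in both hairpins in 7 members, against 50.8% of 15233 windows with a ratio for both. With peaks under 5 kb alone, a setting chosen after seeing the data, the members' medians were 0.25 and -0.043, and 4 of the 7 members with a hairpin 2 value (TAL1, LDB1, LMO4 and TCF3) were below the control. That limit takes out wide peaks unequally. For LMO4 the hairpin 2 peak of 5112 bp was left out and the control peak of 2888 bp was kept.

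Distal peaks overlap no promoter of a protein-coding gene, with 1 start site per gene used. The LMO2 peak over its second annotated start site is therefore among them. Distal peaks alone covered at least 1.5-fold more sequence in 5 of 8 members with hairpin 1 (29.1% of 8628 windows) and in 5 of 8 with hairpin 2 (35.7% of 9002 windows). TAL1, LYL1, TCF3 and TCF12 were among the 5 with both hairpins, joined by LMO2 with hairpin 1 and by LMO4 with hairpin 2. Any excess over the control was seen in 6 of 8 with hairpin 1 (63.7% of windows) and in 8 of 8 with hairpin 2 (70.7%). The exceptions with hairpin 1 were LDB1, with 5205 bp in hairpin 1, 7555 bp in hairpin 2 and 5327 bp in the control, and CBFA2T3, with 6359, 14742 and 11186 bp.

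The window of TAL1 held 20419 bp in hairpin 1, 13582 bp in hairpin 2 and 13231 bp in the control. In hairpin 2, which listed no promoter peak, all of it was distal; distal peaks covered 14896 bp in hairpin 1 and 7302 bp in the control. TCF12, with the longest gene body, held 27995, 24603 and 14378 bp. Beyond its 3' end, 5 regions held 17296 bp in hairpin 1, 13925 bp in hairpin 2 and 5258 bp in the control. CBFA2T3 was the member with the lowest ratio, with 8862, 25002 and 20977 bp. Its promoter peak and the region 14.6 kb upstream were both missing in hairpin 1, and that region had 5467 bp in hairpin 2 and 5364 bp in the control. A region 89.4 kb downstream, in the gene, was also missing in hairpin 1 and had 1555 bp in hairpin 2 and 500 bp in the control. The hairpin 1 ratio stood at percentile 1.503 of all windows and the hairpin 2 ratio at 52.5.

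LYL1 held 18123 bp in hairpin 1, 23631 bp in hairpin 2 and 13868 bp in the control, TCF3 23977, 21478 and 15993 bp, and LMO2 17722, 14845 and 13281 bp. Both hairpins were above the control in each of these 3 genes. LMO4 held 5051, 8087 and 4825 bp, and LDB1 17973, 19486 and 17276 bp. Hairpin 1 over control was 1.05-fold for LMO4 and 1.04-fold for LDB1, close to no difference.

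**Figure D4:**
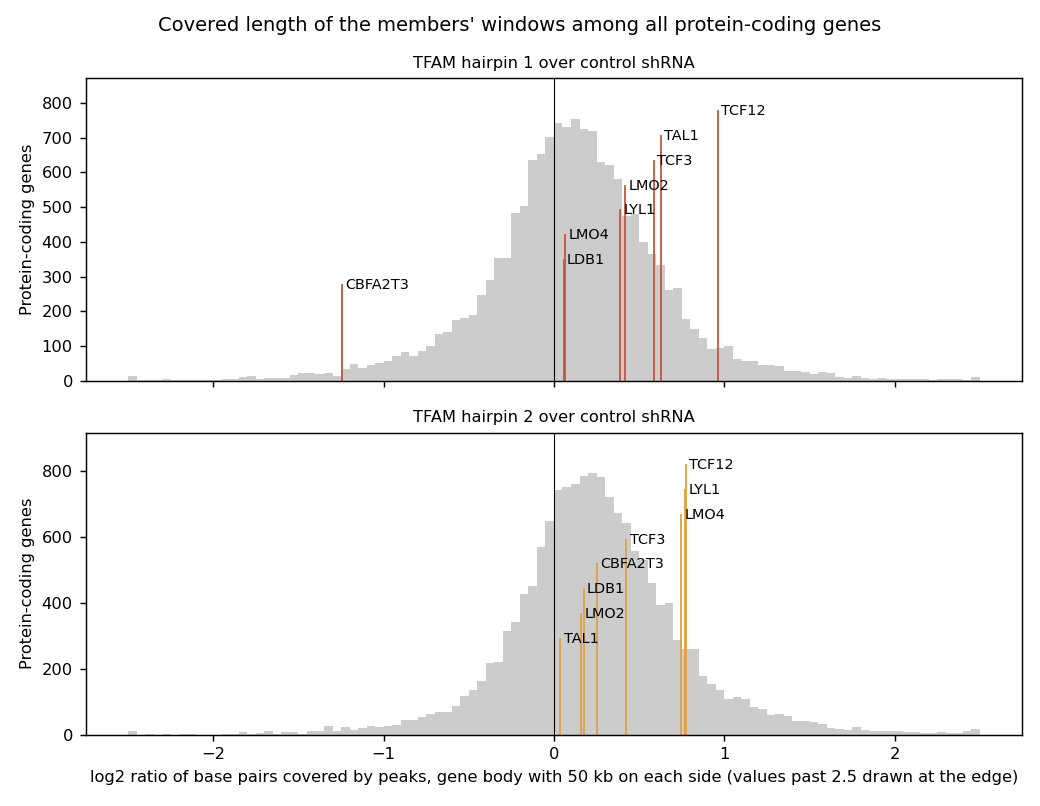
Log2 ratio of base pairs covered by peaks in the window (gene body with 50 kb on each side), TFAM hairpin 1 over control (top) and TFAM hairpin 2 over control (bottom); the grey histogram counts all protein-coding genes with at least 1000 bp in both lists, and coloured lines mark the 8 members at heights chosen for legibility. CBFA2T3 sits at -1.24 for hairpin 1 and 0.25 for hairpin 2, and TCF12 at 0.96 and 0.77.

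By lists, 35 of the 54 regions in the windows had a peak in every list, against 49.9% of all regions. A further 4 were in both hairpin lists and not in the control (5.91% of all regions) and 2 in the control alone (7.05%). The remainder were 4 in hairpin 1 alone (9.71%), 5 in hairpin 2 alone (16.0%), 1 in hairpin 1 and the control (4.29%) and 3 in hairpin 2 and the control (7.21%). The 4 regions shared by the hairpins lay 35 kb upstream of LMO2 (1446 bp in hairpin 1 and 1344 bp in hairpin 2), 417 kb downstream of the TCF12 start site (5478 and 2729 bp), and 106 and 138 kb downstream of that of CBFA2T3 (912 and 1169 bp, then 739 and 724 bp). All 4 were distal. Of the 37 distal regions, 20 were in every list (34.1% of all distal regions) and 4 in both hairpins without the control (7.40%), while 15 of the 17 at promoters were in every list (85.7%). The other promoters in the windows did not differ in status: of 16 further protein-coding genes with a start site there, 14 had a promoter peak in every list and 2 (PDZK1IP1 and PABPN1L) in none.

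Of the 20 distal regions with a peak in every list, 6 (30.0%) were at least 1.5-fold wider in both hairpins than in the control, and 0 were at least 1.5-fold narrower in both. Over all 8023 such regions the shares were 10.2% and 3.91%. Wider by any amount in both hairpins were 15 of the 20, against 40.2% of all. This comparison was added after the widths had been seen. With peaks within 1 kb merged, which joins neighbouring regions in the LYL1 window, 5 of 19 distal regions were at least 1.5-fold wider in both hairpins. Among the higher-scoring 50% of each list, 0 of 7 such regions were that much wider in both hairpins. Each of the 6 had a peak outside that 50% in some list. None of them could be among the 7, so this setting cannot test them. The TAL1 region 19.5 kb downstream of the start site (chromosome 1, 47675707 to 47681158), between genes just past the 3' end, had 4699 bp in hairpin 1, 5452 bp in hairpin 2 and 984 bp in the control. These were 4.78-fold and 5.54-fold the control width, more than at any other of the 20 regions in either hairpin. By score the peak ranked at percentile 43.8 in hairpin 1, 55.2 in hairpin 2 and 3.49 in the control. An enhancer active in blood stem cells, described first in mouse, is known about this far into the locus. The bases printed for this region lie inside the peak of every list. TCF12 at 394 kb (chromosome 15, 57602431 to 57606852) followed with 4422 bp in hairpin 1, 3244 bp in hairpin 2 and 1129 bp in the control.

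In the remaining 4 regions the lower of the hairpin ratios was below that of TCF12. LMO2 at 7.51 kb upstream had 1727 bp in hairpin 1, 1455 bp in hairpin 2 and 677 bp in the control. CBFA2T3 at 20.6 kb, in an intron, had 1639, 1607 and 950 bp. The LYL1 window held the others, side by side in the body of the neighbouring gene NFIX. They had 4067, 7057 and 2343 bp at 31.6 kb and 4068, 6325 and 2111 bp at 24.6 kb. Their score percentiles were 50.2, 19.9 and 51.4, and 71.5, 48.5 and 59.0. Hairpin 2, with the widest peaks, ranked lowest at both. At the TAL1, TCF12, LMO2 and CBFA2T3 regions both hairpins ranked above the control, LMO2 in hairpin 1 only just (9.29 against 9.14). Which gene these regions act on was not tested.

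An erythroid enhancer of TAL1 is known far downstream, in the part of the locus where a region 50.8 kb from the start site was found (chromosome 1, 47644166 to 47650090, over exons of PDZK1IP1). That region had 5648 bp in hairpin 1, 5871 bp in hairpin 2 and 4556 bp in the control, at score percentiles 60.03, 86.6 and 67.2. The peak was thus present in hairpin 2, the library without a TAL1 promoter peak, and wider there than in the control. The region 9.22 kb upstream had 1831, 2259 and 1762 bp. TAL1 also had a peak of 2718 bp in hairpin 1 alone, 38.6 kb downstream. Elsewhere 1 hairpin alone was wide: TCF3 had 4782 bp in hairpin 1, 1196 bp in hairpin 2 and 1123 bp in the control 21.4 kb upstream, and 3000, 5954 and 2695 bp at 19.8 kb in the gene. LMO2 had 2401 bp in hairpin 1 and no peak in hairpin 2 or the control 10.6 kb into the gene.

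**Figure D5:**
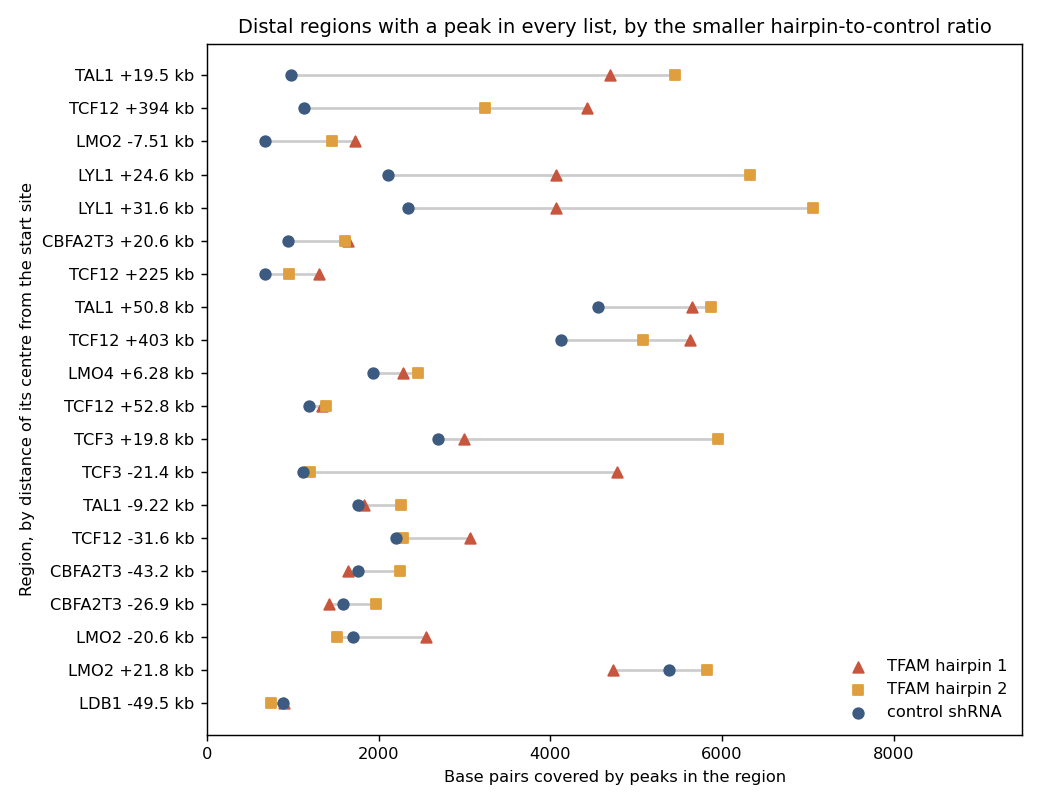
Base pairs covered by peaks in TFAM hairpin 1 (triangles), TFAM hairpin 2 (squares) and control shRNA (circles) for the 20 distal regions of the members with a peak in every list, sorted with the largest smaller hairpin-to-control ratio on top; labels give the distance of the region centre from the start site. In the top 6 rows both hairpins are at least 1.5-fold wider than the control, from TAL1 at 19.5 kb (4699 and 5452 against 984 bp) to CBFA2T3 at 20.6 kb (1639 and 1607 against 950 bp).

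Width of the control peak and G+C content moved with this measure across the genome. Among all distal regions in every list, 32.1% of those up to 1 kb wide in the control were at least 1.5-fold wider in both hairpins, and 11.5%, 3.87% and 1.52% of those over 1, 2 and 3 kb. Among the members' regions the counts were 3 of 5, 1 of 8, 2 of 4 and 0 of 3 in the same bins. With all regions divided into 5 groups of like size by G+C content, the genome share was 4.92% over the lowest 2 groups and 11.5%, 17.3% and 18.4% in the next 3. The members had 0 of 3, 2 of 6, 1 of 5 and 3 of 6 in the same order, and their 20 regions had a median G+C of 51.9% against 46.6% over all. The part of either property in the members' widths was not tested.

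Most sequence motifs were found in the members' regions at shares near those of all regions, with no test made. In the central 300 bases, an E-box (CANNTG) was found in 41 of 54 regions and GATAA in 17 of 54, against 73% and 31.2% of all regions, with both strands searched. CACCC, the core of the motif that KLF1 binds, was in 30 of 54 against 57.7%. The composite CTGNNNNNNNNGATAA was in 1 of 54 against 1.19%, and the form with 7 bases between its parts, CTGNNNNNNNGATAA, in 0 of 54 against 0.916%. The form with 9 bases was in 2 of 54 (TAL1 at 50.8 kb downstream and LMO2 at 7.51 kb upstream), against 1.86%. Upstream of start sites, over 250 bases, that form was in 1 of 8 members (LYL1) and in 0.467% of all genes. Over whole regions of any length, 9 of 54 held at least 1 composite with 7 or 8 bases, against 13.8%. E-boxes and GATAA can overlap the composites, and a match is a description of letters, not a bound site. In the 250 bases upstream of the start site, TAL1 held 1 E-box and 2 GATAA in a stretch of 70.4% G+C. There, 2 of 8 members and 16.1% of all genes had a GATAA, and 3 of 8 and 56.8% had an E-box.

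Genes that act with the complex, and their paralogues, were read in the same way. Of 28 partners and paralogues, 13 had a promoter peak in every list and 10 in none, among them GATA1 and GATA2. Of the 18 with a control peak, 4 had none in hairpin 1 (4.01% of all genes with a control peak) and 4 none in hairpin 2 (3.79%), with 3 missing from both (1.52%). SSBP3, a single-stranded DNA binding protein that protects LDB1 from breakdown, had 0 bp in hairpin 1, 0 bp in hairpin 2 and 5479 bp in the control, at score percentile 69.9. ID3, an inhibitor that ties up E proteins, had 0, 0 and 3388 bp. GFI1B, a transcriptional repressor that acts in red cell and platelet development, had 0, 0 and 7351 bp, at percentile 2.51 of the control list. ID2, of the same inhibitor family as ID3, had 0, 4735 and 5252 bp, and ZFPM1, the GATA1 cofactor FOG1, 6578, 0 and 5997 bp. All but ID3 had a control peak over 5 kb wide. Across the genome, 4.81% of genes with a control peak over 5 and up to 6 kb had none in hairpin 1, and 7.22% none in hairpin 2. For those over 7 and up to 8 kb, the width of the GFI1B peak, these shares were 16.1% and 22.9%. The part of width in these absences was not tested. Whether promoters without a listed peak, such as those of GATA1 and GATA2, lacked acetylation was not tested.

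Of 11 genes that the complex is known to bind in red cell precursors, 4 had a promoter peak in every list and 5 in none. KIT, the stem cell factor receptor, had 1296 bp in hairpin 1, 2665 bp in hairpin 2 and 1455 bp in the control. ALAS2, the first enzyme of haem synthesis in red cells, had 0, 6417 and 2506 bp, and SLC4A1, the band 3 anion exchanger, had 1917, 3485 and 0 bp. The hairpins differed from each other in each of these 3 genes, hairpin 2 having the widest peak.

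The cell type was checked on marker promoters. Of 9 erythroid markers, 5 had a promoter peak in every list, 3 (HBE1, HBG1 and HBG2) in none, and SLC4A1 in the hairpins alone. HBG1 and HBG2 are near-identical copies and only uniquely placed reads were kept, so their lack of a peak is uncertain. Whether HBE1 or other markers without a listed peak lacked acetylation was not tested. Of 6 T cell markers, 0 had one in every list and 4 in none, and CD3D and CD3G shared a peak of 2025 bp in hairpin 1. All 4 endothelial markers analysed had none, and of 5 myeloid markers SPI1 had one in every list, ELANE in hairpin 1 alone and 3 in none. The T cell and myeloid peaks of hairpin 1 stood at score percentiles 42.8 and 25.3 of its list, and their part in the members' values was not tested.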

How the data were processed

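H3K27ac ChIP-seq peak lists of 3 K562 libraries were used, grouped by sample title, with 1 library per group. Per the labels' protocols, NEBNext libraries were run on a NextSeq500, and a read was kept if it aligned to a single hg19 position. Bowtie 0.12.7 and Picard are named without roles, per the submitters' processing notes. Peak names carry a MACS prefix; the caller's version, its threshold and the read depth are not given in the sources used here, and the input library was not analysed here. The deposited lists have no header and hold each peak's position, name and score, the last being the authors' own value of unstated meaning; scores served only to rank peaks within a list (percentile).

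Regions were made by joining peaks, across lists, that shared 1 bp or more. Genes came from GENCODE release 44 on GRCh37, with chrM left out, and the canonical transcript set the start site (19863 genes), or else the gene's 5' end. Covered base pairs were summed within windows, and log2 ratios taken where both lists had at least 1000 bp. Members, lists and alternatives were chosen with earlier results of these data known. Named were all members, and neighbours or listed genes whose promoter status differed between a hairpin and the control; KIT, SPI1, sequences shown and the genes named as in every list or in no list were chosen after their values were seen. PECAM1 was not analysed here, and some items are not reported here. The code was tested on simulated data with planted changes. Versions were pysam 0.24.0 and SciPy 1.17.1 under Python 3.11.15, with pandas 2.3.3, numpy 2.4.6 and matplotlib 3.10.9.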

Additional observations from a re-analysis of the deposited data

Results flagged for a closer look

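The hairpins differed in direction from the control in these results, each resting on 1 library per group, and the difference between hairpins was not tested. Covered base pairs in the CBFA2T3 window had a log2 ratio to the control of -1.24 in hairpin 1 and 0.25 in hairpin 2. With 100 kb on each side in place of 50 kb both were below the control, at -0.80 in hairpin 1 and -0.086 in hairpin 2. For its distal peaks the ratios were -0.81 in hairpin 1 and 0.40 in hairpin 2. For the distal peaks of LDB1 they were -0.033 in hairpin 1 and 0.50 in hairpin 2, where the first is close to no difference. Across all windows with a ratio for both hairpins, 32.1% had the hairpins on opposite sides of the control.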

How the results depend on the processing

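No paired analysis was possible because each group has 1 library; for the same reason no library could be left out. TAL1 lacked a hairpin 2 promoter peak in every one of the 5 alternatives tried. CBFA2T3 lacked one in hairpin 1 in 4 of them; in the higher-scoring 50% of each list its control peak was not kept and the count was 0. In that setting 20 regions were in every list and 0 in the control alone. No distal region was wider in both hairpins there, but each of the 6 found with all peaks had lost a peak in some list. The setting therefore cannot test them. The median log2 ratio of covered base pairs in that setting was 0.27 for hairpin 1 and 0.47 for hairpin 2. With 10 kb on each side of the gene body, which holds fewer regions, 15 were in every list, 1 in both hairpins and not in the control, 0 in the control alone and 8 in other combinations; 3 distal regions were wider in both hairpins, and the hairpin 1 median was 0.24. Distal peaks alone gave medians of 0.70 and 0.76, against 0.20 and 0.33 over all windows. With peaks under 5 kb, an alternative chosen after seeing the data, the medians were 0.25 and -0.043. That setting turned the ratio of CBFA2T3 in hairpin 1 to 0.14. In hairpin 2 it put 4 of the 7 members with a value below the control: TAL1 at -1.69, LDB1 at -0.97, LMO4 at -0.70 and TCF3 at -0.043. The higher-scoring 50% turned the ratio of LYL1 in hairpin 2 to -1.10. With 10 kb on each side, TAL1 in hairpin 2 was at -0.17 and LDB1 in hairpin 1 at -0.034. With 100 kb, LMO4 in hairpin 1 was at -0.22 and CBFA2T3 in hairpin 2 at -0.086. All of these had the other sign with 50 kb and all peaks. The limits on width and score themselves took peaks out of the lists unequally. Under 5 kb, LMO4 lost its peak of 5112 bp in hairpin 2 and kept that of 2888 bp in the control. CBFA2T3 lost control peaks of 7577 and 5364 bp. For LYL1 in hairpin 2, peaks at score percentiles 19.9, 48.5 and 48.5 fell outside the higher-scoring 50%. Any further cause was not tested. Equal list lengths, an overlap of 50% of the shorter peak, merging within 1 kb and 100 kb on each side moved none of the counts by over 1.5 times and no median by over 0.1. Read depth is not given, so what it limits cannot be stated.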

Other observations

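In hairpin 2, broad marked stretches in NFIX, within the LYL1 window, and at LDB1 were listed as pairs of peaks with a short gap. In NFIX, peaks of 7057 and 6325 bp were 85 bp apart and together spanned 13467 bp of chromosome 19. They fell in separate regions, both counted among the 6 distal regions wider in both hairpins. With peaks within 1 kb merged, that count was 5. At LDB1, peaks of 5558 and 5104 bp were 187 bp apart and spanned 10849 bp of chromosome 10. Gaps of up to 200 bp between neighbouring peaks numbered 344 in hairpin 2 (12.7 per 1000 peaks), 219 in hairpin 1 (9.19 per 1000) and 222 in the control (9.48 per 1000). No other members' window held such a gap in any list.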
